A study of Populus trichocarpa with 12 samples.

Results

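Late risers are the genes of black cottonwood xylem that kept their watered level after 5 days without water and stood well above it after 7. They were picked from the deposited counts as CPM (each count divided by its library's total and multiplied by 1000000) and on the scale log2(CPM + 1), averaged over the 4 libraries of each day. A late riser had a mean of at least 1 CPM on day 0, a day 5 mean within 0.3 of the day 0 mean, a day 7 mean at least 1.5 above it, and all 4 day 7 libraries above all 8 others. Of 41335 gene identifiers, 88 met all conditions; they are 0.362% of the 24303 genes with at least 1 CPM on day 0. The choice used the values of all 3 days, so the differences between days below are descriptions of the chosen genes, and no test among these libraries is independent of it.

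Populus trichocarpa trees were grown in a greenhouse, and RNA of stem differentiating xylem, the forming wood taken with a razor just under the bark low on the stem, was sequenced. The day 0 group was fully irrigated, with soil at 74% and xylem at 80.6% water. The day 5 group, called mild drought in the labels, had gone 5 days without watering, with soil at 33% and xylem at 75.3% water. The day 7 group, called severe drought, had gone 7 days without, with soil at 29% and xylem at 74.3% water. Each group has 4 libraries. The labels give these libraries no genotype; the growth text speaks of transgenic trees with wild type, planted in batches, and ties no library to a batch. They also do not say whether the libraries came from separate trees, so the spread given here may be partly technical. No irrigated trees of the later harvests were analysed here, and drought and harvest day cannot be told apart.

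Developing xylem is laid down by the cambium, the dividing layer under the bark, and its cells expand, deposit thick walls of cellulose, xylan and lignin, and in vessels and fibres finally die. Drying soil lowers the water potential around these cells and raises the hormone abscisic acid, which in plants switches on genes of water retention and protection while growth slows. Some drought genes answer at the first shortage and others only when loss of water becomes severe. The count table identifies genes by locus number alone and no product name was matched to any of them, so the functions of the late risers are not given.

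Library totals ran from 9351583 to 19223816 counts. As a check of the tissue, 6 genes known from published designations as wood genes (5 cellulose synthases of the secondary wall and a cinnamate hydroxylase of lignin synthesis) were summed. They held 4103, 11338, 7061 and 4918 CPM in day 0 replicates 1 to 4, 1323, 2334, 2170.4 and 769 CPM on day 5 and 153, 908, 164 and 198 CPM on day 7. All 6 were detected on day 0, and day 7 replicate 2 stood above the other libraries of its day. In bulk tissue, fewer cells of a type and less RNA per cell cannot be told apart. No marker of another tissue could be looked up by product name.

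Most genes that stood well above their watered level on day 7 were already higher on day 5. Among genes above the day 0 minimum, 1495 had a day 7 mean at least 1.5 log2 units above day 0. Of these, 1314 were already more than 0.3 higher on day 5, 77 were more than 0.3 lower on day 5, and 104 (6.96%) lay between. The demand that day 7 libraries overlap no other library removed 16 of these 104 and left the 88. The same demand left 320 of the 1314 and 64 of the 77, so that 472 genes met it in all. Read the other way, 6608 genes were within 0.3 of day 0 on day 5, and 1.33% of them were late risers.

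**Figure D1:**
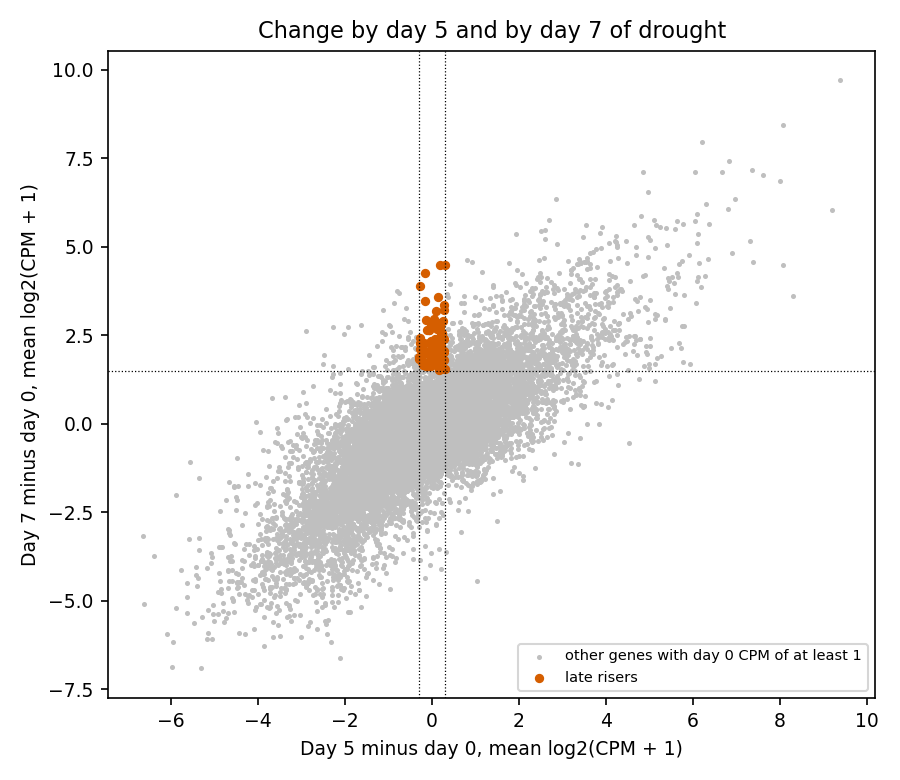
Each point is a gene with at least 1 CPM on day 0; the x axis is the day 5 minus day 0 difference and the y axis the day 7 minus day 0 difference of mean log2(CPM + 1), n = 4 libraries a day. Dotted lines are the limits of the rule; the 88 late risers (orange) occupy the narrow column above 1.5, while 1314 other genes at that height or above lie to its right.

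The 88 genes typically had several times as many counts per library under severe drought as under irrigation. Their day 7 minus day 0 difference in mean log2(CPM + 1) ran from 1.52 to 4.48, with a median of 2.03 (quartiles 1.80 and 2.43), against a median of -0.19 over all 24303 genes. As a ratio of mean CPM, 30 of them were under 4-fold higher on day 7, 43 were 4- to 8-fold higher and 15 at least 8-fold, with a median of 4.64 and a top of 34.9. Day 5 minus day 0 had a median of 0.06, against -0.18 over all 24303 genes, and was above 0 in 51 members and below it in 37. The flat level on day 5 thus holds for CPM by library total. Under other scalings of library size, TMM and RLE, 11 and 16 members lay more than 0.3 from day 0 on day 5. The gap between the lowest day 7 library and the highest of the other 8 was at least 1 log2 unit in 33 genes and under 0.5 in 16.

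Most late risers were weakly to moderately counted at first. On day 0, 46 averaged under 10 CPM, 35 lay between 10 and 100 CPM and 7 above 100. On day 7 these bands held 4, 58 and 22 genes, and 4 more exceeded 1000 CPM. The 4 day 0 libraries together held 50 counts of the least counted member and a median of 481, and no member was at 0 in any library.

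All 88 genes passed the low-count filter of the fit over all genes. edgeR's quasi-likelihood test, with p-values adjusted over 26943 genes, called 88 of 88 higher on day 7 than on day 0, where 27.5% of all tested genes were called higher and 51.1% in either direction, and 88 of 88 higher on day 7 than on day 5, where these shares were 22.3% and 42.1%. Between day 5 and day 0 it called 0 of 88 in either direction, where 58.7% of all genes were called and 29.9% were higher, and 0 of 88 had an unadjusted p under 0.05; DESeq2 and limma-voom also called 0. The rule fixed these calls and nothing is read from them. Having all day 7 libraries above the other 8 was likewise set by the rule; it held for 5.83% of the 24303 genes.

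**Figure D2:**
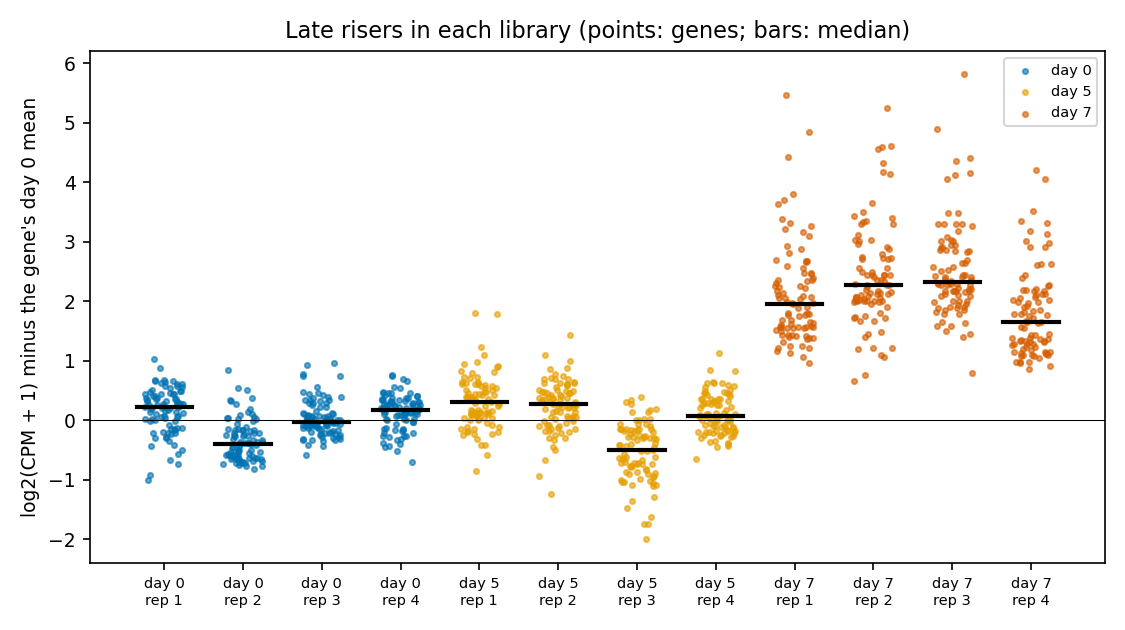
Each point is 1 of the 88 late risers in 1 library, as log2(CPM + 1) minus the gene's own day 0 mean (y axis), for the 12 libraries in order of day (x axis); black bars are medians over genes. Medians lie between 1.66 and 2.33 in the day 7 libraries, and day 5 replicate 3, at -0.51, is the lowest of all.

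The largest late rises belonged mostly to genes with few counts in watered wood. Potri.005G058200 had 18.2, 6.98, 11.2 and 11.4 CPM in the day 0 libraries, 16.6, 15.9, 7.32 and 14.8 CPM on day 5 and 265, 289.5, 367 and 203 CPM on day 7. The lowest day 7 library stood 3.41 log2 units above the highest of the other 8, the widest such gap among the 88 genes. Its mean was 281 CPM ± 67.8 on day 7 and 11.9 CPM ± 4.63 on day 0 (SD, n = 4 each), a ratio of 23.6 and a difference of 4.48 in mean log2(CPM + 1). Potri.010G126300 had 5.45, 3.87, 3.39 and 5.55 CPM in the day 0 libraries, 9.29, 13.9, 0.366 and 8.81 CPM on day 5 and 75.6, 209, 309 and 43.1 CPM on day 7. Here the ratio of means was 34.9 and the log2 difference 4.47, but the day 7 libraries differed among themselves by 7.18 times. On day 5 this gene was split: replicate 3 lay far below every watered library, and the other 3 lay above every one of them. Without day 5 replicate 3 its day 5 minus day 0 difference was 1.06 in place of 0.30, outside the limit of 0.3.

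Potri.008G108100 and Potri.002G190600 shared another pattern among replicates. Potri.008G108100 had 1.82, 6.61, 4.57 and 5.69 CPM in the day 0 libraries, 17.5, 1.25, 2.01 and 3.01 CPM on day 5 and 234, 42.6, 108 and 97.7 CPM on day 7, a log2 difference of 4.27 between day 7 and day 0. Potri.002G190600 had 3.64, 1.43, 5.90 and 2.35 CPM in the day 0 libraries, 13.1, 1.09, 1.16 and 7.81 CPM on day 5 and 115, 18.4, 18.8 and 40.0 CPM on day 7, a difference of 3.20. Both were highest in replicate 1 on day 5 as on day 7, and lowest on day 7 in replicate 2. In Potri.002G190600 day 7 replicate 3 was nearly as low, at 18.8 CPM beside 18.4 CPM. The labels do not say that a replicate number links libraries of different days.

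Steadier large rises were those of Potri.009G044400, Potri.002G196700 and Potri.011G156600. Potri.009G044400 had 4.38, 3.37, 4.94 and 3.06 CPM in the day 0 libraries, 5.74, 3.23, 0.915 and 3.71 CPM on day 5 and 62.5, 96.9, 86.2 and 47.6 CPM on day 7 and a log2 difference of 3.88. Potri.002G196700 had 79.7, 145, 79.1 and 92.1 CPM on day 7 and 11.9, 4.61, 5.82 and 7.69 CPM on day 0, a difference of 3.58. Day 7 libraries of these genes stayed within about 2 times of each other. Potri.011G156600 came from the bottom of the range, with 21.2 CPM ± 6.91 on day 7 and 1.02 CPM ± 0.527 on day 0 (SD, n = 4 each), resting on 1251 and 50 counts. Of the other genes among the 10 largest, Potri.002G037100 had 8.65, 67.4, 48.0 and 20.3 CPM on day 7 and 2.03, 0.811, 4.50 and 1.07 CPM on day 0, a difference of 3.36. Potri.011G110000 had 17.99, 15.7, 42.4 and 7.48 CPM on day 7 and 1.71, 0.374, 0.368 and 2.42 CPM on day 0, a difference of 3.18. These rises were uneven, each with a day 7 library several times below the highest. Potri.007G047200 was the only one of the 10 with over 20 CPM on day 0: it had 391, 428, 336 and 227 CPM on day 7 and 47.2, 44.1, 38.5 and 40.6 CPM on day 0, a difference of 2.96.

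**Figure D3:**
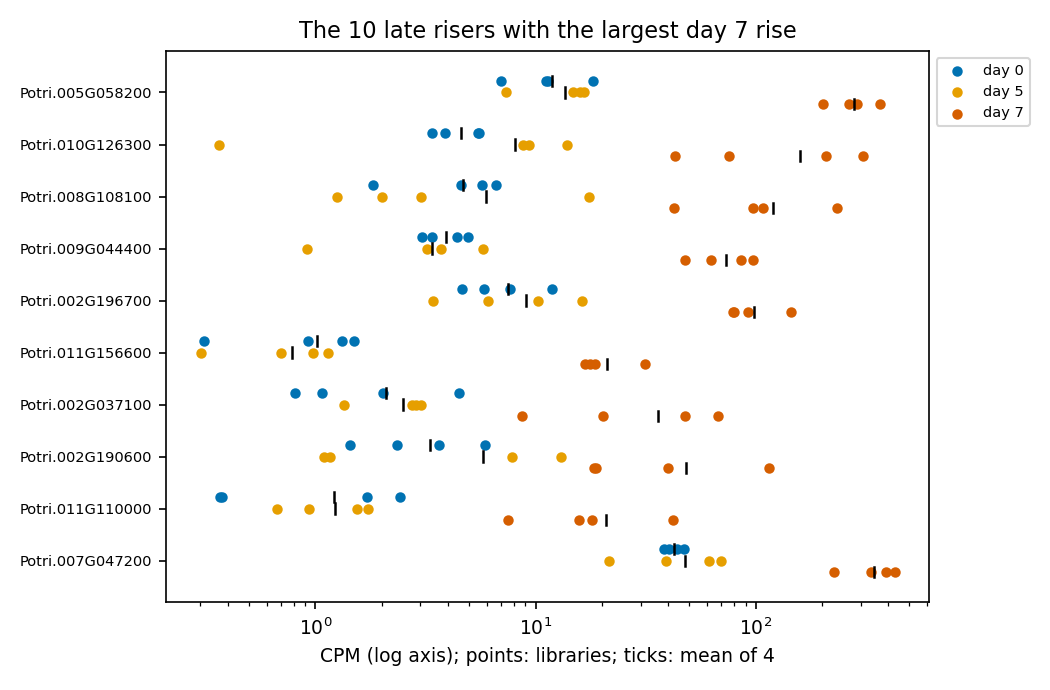
CPM on a log axis (x) of the 10 late risers with the largest day 7 minus day 0 difference (y), with 4 libraries a day as points and their mean as a tick. In each gene the 4 day 7 points lie right of the 8 others; for Potri.010G126300 1 day 5 library, at 0.366 CPM, lies left of all day 0 libraries.

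Together the 88 genes took a small part of the counts, and a larger one under severe drought than under irrigation. Their share of counts was 0.384, 0.248, 0.344 and 0.343% in day 0 replicates 1 to 4, 0.419, 0.422, 0.188 and 0.393% on day 5 and 1.24, 1.96, 1.54 and 1.25% on day 7. Day 7 libraries averaged 1.4996% ± 0.338 and day 0 libraries 0.330% ± 0.0578 (SD, n = 4 each), a ratio of 4.54. The 95% binomial (Clopper-Pearson) interval of a single library was narrow, 1.96% to 1.97% in day 7 replicate 2, and covers counting error only. Day 7 replicate 2 had the largest share of the late risers and also the most wood transcripts of its day. Day 0 replicate 2, with the most wood transcripts of all, had the smallest share of its day. It was the lowest watered library in 60 of 88 members (68.2%), beside 53.4% of all 24303 genes. Among the 320 genes that rose as far without overlap but were already higher on day 5, it was the lowest in 79.1%, so this is not particular to the late risers. The part of wood transcripts in these shares was not tested.

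**Figure D4:**
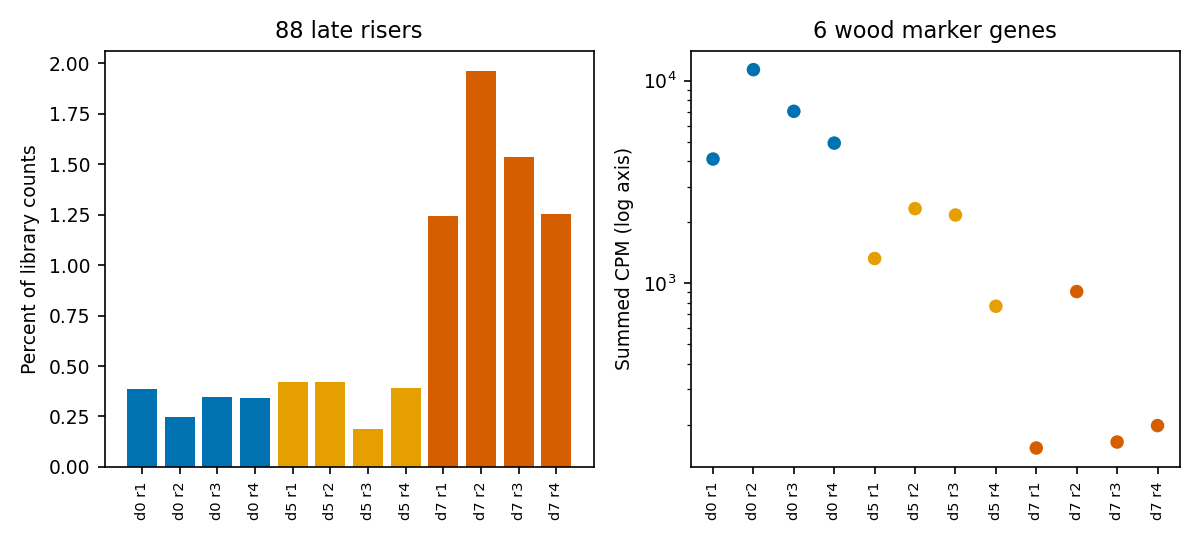
Left, the percent of each library's counts held by the 88 late risers (bars from 0); right, the summed CPM of 6 wood genes on a log axis; both for the 12 libraries in order of day (d, day; r, replicate). Late risers took 1.24% to 1.96% on day 7, while wood genes were lowest in replicates 1, 3 and 4 of that day, with replicate 2 above them at 908 CPM.

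A few members carried most of that gain. Potri.018G100200 alone made up 22.97% of the CPM gained by the 88 genes between day 0 and day 7, and the 5 largest gains together 51.3%. It had 430.2, 476, 682 and 441 CPM in the day 0 libraries, 667, 854, 232 and 889 CPM on day 5 and 1949.7, 4930.1, 1969 and 3929 CPM on day 7. Replicates 2 and 4 of day 7 lay well above replicates 1 and 3, and day 5 replicate 3 below all watered libraries. Without this gene the share of the other 87 still averaged 1.18% ± 0.276 on day 7 and 0.279% ± 0.0590 on day 0 (SD, n = 4 each). Potri.007G026100 had 1416, 1523, 2266 and 1112 CPM on day 7 and 728, 258, 435 and 525 CPM on day 0. Potri.006G232900 had 1007, 2517, 1059.5 and 774 CPM on day 7 and 203, 413, 462 and 345 CPM on day 0. In Potri.006G232900 the day 7 mean leaned on replicate 2.

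Below these, Potri.014G072300 had 182, 76.1, 113 and 179 CPM in the day 0 libraries, 226, 167, 46.2 and 195 CPM on day 5 and 670.2, 707, 709.5 and 467 CPM on day 7. Potri.001G216900 had 232, 89.1, 135 and 179.8 CPM in the day 0 libraries, 209.5, 182, 71.99 and 186 CPM on day 5 and 598, 566, 740.4 and 521 CPM on day 7. On day 7 replicate 4 was the lowest in both, set apart from the other 3 in Potri.014G072300, and both had their lowest watered library in replicate 2 and a day 5 replicate 3 under all watered libraries. Potri.004G140600 had 239, 766, 416 and 225 CPM on day 7 and 155, 70.3, 106 and 148 CPM on day 0. Potri.018G110800 had 175, 505, 321 and 134 CPM on day 7 and 49.1, 25.4, 39.1 and 47.3 CPM on day 0. In Potri.004G140600 and Potri.018G110800 day 7 replicate 2 was the highest library and replicate 4 the lowest of that day. Counts were not divided by gene length, so these shares do not rank the genes by number of transcripts.

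Some late risers sat beside each other in the genome. Locus numbers of the identifiers run along each chromosome, and 5 pairs of members were consecutive in the table, with a further pair separated by 1 gene, 12 members in all. Potri.018G100300, next to Potri.018G100200, had 411, 209, 321 and 204 CPM in the day 0 libraries, 479, 422, 87.8 and 411 CPM on day 5 and 841, 1256, 746 and 1237 CPM on day 7. The pair did not keep a fixed proportion: the count ratio of Potri.018G100200 to Potri.018G100300 lay between 1.05 and 3.93 over the 12 libraries. Potri.010G166500 and Potri.010G166600 did, at 6.27 to 7.52, with log2 differences of 1.65 and 1.65 between day 7 and day 0. Potri.004G215600 and Potri.004G215700 were nearly equal in every library, with a ratio of 1.00 to 1.33 and log2 differences of 2.26 and 2.29. How reads of similar or overlapping genes were counted is not given in the sources used here, so such a pair may share reads and is uncertain as 2 separate rises.

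The remaining pairs differed more in their rise than the pairs of Potri.010G166500 and Potri.004G215600. Potri.006G007400 and Potri.006G007500 had log2 differences of 2.03 and 2.24, Potri.006G060700 and Potri.006G060800 of 1.52 and 2.04, and Potri.014G072100 and Potri.014G072300, with 1 gene between them, of 1.88 and 2.27. Identifiers of chromosome 6 held the most members, 13 of 1766 genes with at least 1 CPM on day 0, and those of chromosome 13 held 0 of 979. The share was 0.74% on chromosome 6 and 0.67% on chromosome 18, beside 0.36% of all such genes. These chromosomes were picked by their values, and their shares were not tested. Most genes next to a member, but not members themselves, did not reach the members' rise. Of 109 such neighbours with at least 1 CPM on day 0, 11 (10.1%) were 1.5 or more higher on day 7, beside 6.15% of all such genes. Their median difference was -0.06, against -0.19 over all genes; the difference was not tested.

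Within day 7 the late risers did not rise evenly across libraries. The rule singled out no library, but it used all 4 day 7 values and so shaped which spreads could pass. Replicate 2 or replicate 3 was the highest of the 4 in 36 genes each (40.9%), beside 31.6% and 20.4% of all genes. Replicate 1 was the highest in 14 and replicate 4 in 2, beside 21.8% and 26.1% of all genes. Replicate 4 was the lowest in 52 of 88 (59.1%), beside 27.8% of all genes. The mean of replicates 2 and 3 exceeded that of replicates 1 and 4 in 68 of 88 genes (77.3%), beside 59.1% of the 320 genes that rose as far without overlap but were already higher on day 5, 84.4% of the 64 that did so after a lower day 5, and 48.7% of all genes. This grouping of libraries was chosen after the values were seen and carries no test. Replicate 4 was the lowest in 40.6% of the 320 and in 68.8% of the 64. The late risers' median SD among day 7 libraries was 0.51 log2 units, against 0.29 for the 320, 0.61 for the 64 and 0.26 for all genes. The members' median SD also exceeded that of all genes on day 0 (0.41 against 0.27) and day 5 (0.46 against 0.23). To avoid overlap, these sets had to clear unlike day 5 levels. The median day 5 minus day 0 difference was 1.08 in the 320 and -0.70 in the 64. Their spreads and replicate shares are not independent of the rule.

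Replicate 2 divided the members, as it did all genes. It was the highest day 7 library in 40.9% of the members and the lowest in 21.6%, beside 31.6% and 28.3% of all genes. It exceeded the mean of the other 3 day 7 libraries by more than 0.5 log2 units in 35 members. It fell below that mean by more than 0.5 in 13, and 40 lay between. No share over all genes is given for these counts, and they are not read as particular to the members. Potri.010G107900, the most extreme on the high side, had 7.80, 65.0, 18.9 and 9.87 CPM in day 7 replicates 1 to 4 and 0.855, 1.37, 3.61 and 1.78 CPM on day 0. Its log2 difference of 2.78 dropped to 2.18 without day 7 replicate 2, the only one of the 88 differences in mean log2(CPM + 1) that moved by over 1.5 times, as a fold, when any 1 library was left out. Ratios of mean CPM leaned more on single libraries and moved by over 1.5 times in 10 members. Without day 7 replicate 2 the day 7 over day 0 ratio was 6.40 in Potri.010G107900, 7.56 in Potri.016G054800 and 5.40 in Potri.001G231900, in place of 13.3, 11.8 and 8.58. Without day 7 replicate 3 it was 11.3 in Potri.011G110000, 5.09 in Potri.001G139600, 5.03 in Potri.009G041100 and 3.39 in Potri.001G423700, in place of 17.1, 7.90, 8.00 and 5.77. Potri.002G190600 had 7.74 without day 7 replicate 1, in place of 14.5. Left-out watered libraries raised the ratio of Potri.018G063900 to 8.95 (without day 0 replicate 1; 5.75 with it) and of Potri.002G037100 to 27.7 (without day 0 replicate 3; 17.2 with it). Potri.016G054800 had 5.02, 54.0, 34.0 and 10.8 CPM on day 7 and 2.14, 1.18, 3.32 and 2.14 CPM on day 0. On the low side, Potri.007G084700 had 25.6, 4.26, 14.9 and 11.5 CPM on day 7 and 3.21, 2.06, 1.55 and 1.78 CPM on day 0. Its day 7 replicate 2 lay 0.77 log2 units above the day 0 mean and 0.32 above the highest watered library.

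**Figure D5:**
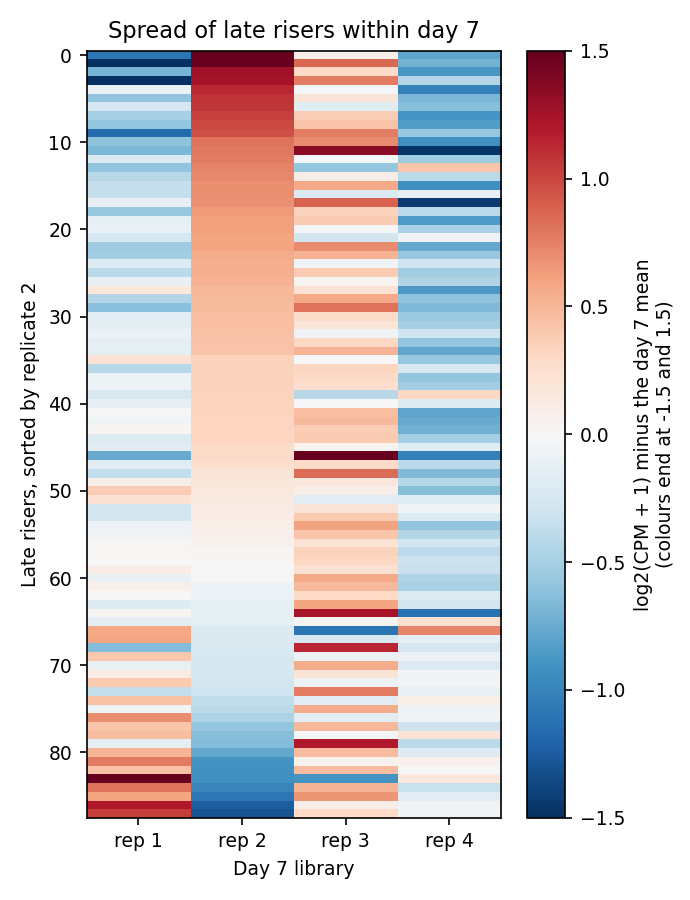
Colours give log2(CPM + 1) of each of the 88 late risers (rows, sorted by replicate 2) in the 4 day 7 libraries (columns) minus the gene's day 7 mean. Replicate 2 is more than 0.5 above the mean of the other 3 in 35 genes and as far below it in 13, with no share over all genes given. Replicate 4 is lowest in 52 (59.1%, beside 27.8% of all genes).

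The level on day 5 was flat in the mean but not in every library. Day 5 replicate 3 was the lowest library of its day in 64 of 88 late risers (72.7%), beside 65.6% of the 320 earlier risers, 76.6% of the 64 with a lower day 5 and 34.3% of all genes. It lay below all 4 watered libraries in 44 members. Medians of log2(CPM + 1) minus the day 0 mean were 0.30, 0.27, -0.51 and 0.08 in day 5 replicates 1 to 4. Only 20 of 88 genes had all 4 day 5 libraries within 0.5 of the day 0 mean. Without replicate 3 the median day 5 minus day 0 difference of the members was 0.25 in place of 0.06, and 35 of 88 exceeded 0.3. No share over all genes is given for the counts of 44, 20 and 35. They describe the members and are not read as particular to them.

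A few calls of members on day 5 by edgeR's quasi-likelihood test also depended on single libraries. Without day 5 replicate 3, Potri.006G060800, Potri.017G055900 and Potri.018G100300 were called higher on day 5 than on day 0, and without day 5 replicate 1, Potri.012G006000 was. Potri.006G060800 shows the split: it had 91.9, 45.5, 65.6 and 65.5 CPM in the day 0 libraries, 141, 102, 31.5 and 83.6 CPM on day 5 and 271, 275, 336 and 217 CPM on day 7. Day 5 replicates 1 and 2 were above every watered library and replicate 3 was below every one. With all libraries kept, the test called 29.9% of all tested genes higher on day 5 than on day 0. No such share is given with a library left out, so the members' calls are not read as particular to them.

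Which genes met the rule depended on single libraries. With each library left out in turn the rule returned 73 to 112 genes, but only 15 of the 88 were returned all 12 times. Leaving out day 5 replicate 3 cost the most members: 73 genes met the rule, of which 53 were among the 88. Without day 7 replicate 2 it was 93 genes, 78 of them among the 88, and without day 7 replicate 4 it was 112, all 88 included. The 15 lasting members had log2 differences from 1.68 to 2.93 on day 7 and from -0.14 to 0.17 on day 5. Their day 7 means ran from 9.34 to 118 CPM and their day 0 means from 1.17 to 28.5 CPM.

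Potri.017G060000 had the largest rise among the lasting members, with 14.1, 6.36, 6.41 and 10.8 CPM in the day 0 libraries, 9.75, 6.03, 7.87 and 8.97 CPM on day 5 and 103, 47.4, 72.9 and 86.4 CPM on day 7. Potri.008G124400 was flat in all 8 watered and mild-drought libraries, with 9.20, 8.61, 10.5 and 13.0 CPM in the day 0 libraries, 8.76, 9.47, 10.2 and 10.2 CPM on day 5 and 81.4, 24.7, 85.8 and 47.5 CPM on day 7. Potri.001G423700 had 4.71, 6.42, 6.26 and 6.41 CPM in the day 0 libraries, 5.52, 5.25, 6.83 and 6.42 CPM on day 5 and 15.4, 32.6, 76.6 and 12.6 CPM on day 7. In Potri.001G423700 the 8 earlier libraries were nearly level, with 6.004 CPM ± 0.743 on day 5 and 5.95 CPM ± 0.833 on day 0, and the day 7 libraries were spread widely above them at 34.3 CPM ± 29.6 (SD, n = 4 each). Potri.002G024700 rose most evenly of these 4 genes, with 125, 117, 137 and 92.1 CPM on day 7 and 25.3, 30.4, 27.3 and 31.0 CPM on day 0. The others returned all 12 times were Potri.001G008400, Potri.001G409900, Potri.006G230000, Potri.008G166400, Potri.009G041100, Potri.010G107900, Potri.010G130800, Potri.015G039900, Potri.016G054800, Potri.017G010800 and Potri.T029700.

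Genes lay close to each limit of the rule on either side of it. On day 7 minus day 0, Potri.006G060700 was just inside at 1.52 and Potri.015G098300 just outside at 1.497. On day 5 minus day 0, Potri.010G126300 was just inside at 0.296 and Potri.001G193400 just outside at 0.311. Potri.011G156600 was inside with a day 0 mean of 1.02 CPM, and Potri.010G141400 outside with 0.940 CPM. The gap between the lowest day 7 library and the highest of the others was 0.0914 log2 units in Potri.004G085600, inside, and -0.00215 in Potri.010G045200, outside.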

How the data were processed

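The deposited counts, whole numbers without normalisation, cover 41335 gene identifiers and 12 libraries, and all columns were used. Per the submitters' processing notes, reads were handled with TopHat. The sources used here give no version, genome build, counter or strand setting. Groups and replicate numbers came from the library titles. Libraries of a day differed from each other beyond sampling noise, with 12.7 to 97.3 as chi-square divided by its degrees of freedom. The rule for the 88 genes used CPM by library total, which give counts per 1000000 from the deposited counts. edgeR 4.0.16 in R 4.3.3 fitted all 12 libraries (TMM scaling, filterByExpr with a minimum count of 10, glmQLFit and glmQLFTest), with Benjamini-Hochberg adjustment over 26943 genes and a threshold of 0.05; it was tested on simulated counts. Alternatives were DESeq2 1.42.0, limma-voom (limma 3.58.1), other scalings, no filter, 2 groups alone, replicate number as a block, other limits of the rule and each library left out. Figures used matplotlib 3.10.9.

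Members, lists and tests were chosen with earlier results of these data known. The RefSeq gene table used here held none of the identifiers, so the lists by product name and the promoter motifs were not analysed here. A further wood marker is not reported here. For unnamed identifiers the naming rule allowed 2, Potri.005G058200 and Potri.010G126300, the largest rises; the rest (other large rises, largest counts, neighbours, edges of the rule, extremes of replicate 2, ratios that leaned on 1 library, genes kept in all 12 runs and those called on day 5) were named after their values were seen.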

Additional observations from a re-analysis of the deposited data

Results flagged for a closer look

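Among 117 sets of 4 values checked with Dixon's criterion, 8 had 1 value set apart from its day; chance alone does so in about 1 of 20 independent sets, and these share libraries and genes. The summed share of the late risers was 0.188% of counts in day 5 replicate 3, with 0.393 to 0.422% elsewhere on day 5. The 6 wood genes summed to 908 CPM in day 7 replicate 2, against 153 to 198 CPM in the others of that day.

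On day 5, Potri.008G108100 stood at 17.5 CPM in replicate 1 (others 1.25 to 3.01) and Potri.002G037100 at 1.34 CPM in replicate 3 (others 2.76 to 3.02). On day 7, Potri.006G232900 stood at 2517 CPM in replicate 2 (others 774 to 1059.5). Potri.014G072300 was at 467 CPM in replicate 4 (others 670.2 to 709.5). In day 7 replicate 3, Potri.011G156600 was at 31.5 CPM (others 16.8 to 18.6) and Potri.001G139600 at 17.3 CPM (others 4.25 to 6.01).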

How the results depend on the processing

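The number of late risers moved with the limits of the rule: 56 with day 5 within 0.2 of day 0, 143 with 0.5, 180 with a rise of at least 1, 47 with at least 2, and 137 with no minimum on day 0. Scaling changed both which genes met the rule and how many: TMM gave 108 (76 of the 88 among them), RLE 98 (71) and upper-quartile 105 (87); TMM and RLE raised the all-gene median of day 7 minus day 0 by 0.14 and 0.13. A pseudocount of 5 lowered the members' median rise to 1.70, against 2.03; it was 1.93 to 2.16 with any library left out. Leaving out libraries gave 73 to 112 late risers, 88 of 88 members called higher on day 7 against either day each time, 0 to 3 called on day 5, and 6580 to 7705 and 4964 to 6214 genes called higher on day 7 against day 0 and day 5. The replicate block gave the same 88, 88 and 0 members, and 6924 and 5576 genes in all (7402 and 5995 without it). Of 12 same-numbered pairs of libraries, 4 correlated above 0.1 (-0.17 to 0.49), and differently numbered pairs ran from -0.43 to 0.24. The highest, 0.49, was that of replicate 2 on day 5 and day 7. Such correlations cannot settle whether the numbers pair the samples, since libraries can resemble each other for other reasons. No named member's rise reversed. With a library left out this was fixed in advance, since the rule kept only genes whose day 7 libraries all lay above the others. The motif alternative was not run.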

Other observations

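The minimum on day 0 kept out genes with large late rises. Potri.010G141400 had 1.18, 0.935, 0.295 and 1.35 CPM in the day 0 libraries, 1.81, 0.260, 1.59 and 0.618 CPM on day 5 and 426, 48.3, 547 and 286 CPM on day 7, a log2 difference of 6.98 between day 7 and day 0, larger than that of any of the 88; its day 0 mean rests on 49 counts. Potri.006G017700 had 0.535, 0.249, 1.55 and 1.42 CPM in the day 0 libraries, 0.680, 2.29, 0.793 and 1.31 CPM on day 5 and 28.2, 91.3, 31.2 and 28.3 CPM on day 7, a difference of 4.43. Both were picked out after their values were seen.

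Potri.008G108000, consecutive with the late riser Potri.008G108100, missed the rule at a difference of 1.49. It had 253, 164, 173 and 266 CPM in the day 0 libraries, 358, 248, 210.5 and 231 CPM on day 5 and 576, 657, 617 and 512 CPM on day 7. Like its neighbour it was highest in replicate 1 on day 5, but on day 7 it was highest in replicate 2, where its neighbour was lowest. The mirrored rule for genes that were lower only on day 7 returned 65 genes.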
